A study of Mus musculus with 12 samples.

Results

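The 3 thioredoxin reductase genes Txnrd1, Txnrd2 and Txnrd3 were taken by their symbols from tables that list 23 selenoprotein genes, and all 3 were measured in each of 12 liver libraries. The libraries came from FVB/N mice of 2 genotypes. Wild-type mice carried no transgene, and TrspA37G mice carried 20 copies of a transgene for a mutant selenocysteine (Sec) tRNA. Each genotype received a diet with 0, 0.1 or 2.0 ppm selenium for 6 weeks, and each diet and genotype gave 1 library of ribosome footprints and 1 of mRNA. Every group was thus 1 library, and the sources do not say whether it came from 1 or several animals. The transgenic mice keep their own Sec tRNA genes. The labels give an age of 3 weeks for every group, which is shorter than the time on the diet, so it was not taken as the age at sampling.

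Thioredoxin reductases pass electrons from NADPH to thioredoxins, which in turn keep other proteins reduced. Txnrd1 is the cytosolic enzyme, Txnrd2 the mitochondrial one, and Txnrd3, known from testis, carries an added glutaredoxin domain and reduces glutathione-linked substrates as well. All of them are selenoproteins: the catalytic Sec is inserted at a UGA codon, read by the Sec tRNA, next to the end of the protein. The TrspA37G tRNA lacks modifications of its anticodon loop and is known to lower the synthesis of some selenoproteins more than others.

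The ends of the coding sequences are shown because the place of the UGA decides which footprints can be read. Each line gives the last 9 sense codons and the stop codon from the GENCODE M21 transcripts, 5′ to 3′, with the UGA for Sec in capitals as TGA.
Txnrd1: gacatcctccagtctggctgcTGAggttaa
Txnrd2: gagcctactgtgactggttgcTGAggctaa
Txnrd3: gacattactcagaaaggctgcTGAggctag
In all 3 genes the codon before the UGA is TGC, a cysteine codon, and 1 further codon precedes the stop. On GRCm38, Txnrd1 lies on the plus strand at chr10:82833951-82897712, with the UGA at chr10:82896037-82896039 in exon 14 of 14, as codon 498 of 499. Txnrd2 lies on the plus strand at chr16:18426384-18479073, with the UGA at chr16:18477772-18477774 in exon 17 of 18, as codon 526 of 527. Txnrd3 lies on the plus strand at chr6:89643988-89675529, with the UGA at chr6:89674789-89674791 in exon 16 of 16, as codon 614 of 615. The submitters' build was mm9, so these positions describe the annotation and not the deposited values.

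The coding sequences of the members are related. Aligned coding bases were identical at 64.6% between Txnrd1 and Txnrd2, 70.2% between Txnrd1 and Txnrd3 and 66.0% between Txnrd2 and Txnrd3. No stretch of 25 bases was shared by any pair, and 1 stretch of 20 bases was shared, between Txnrd2 and Txnrd3. The handling of reads that fit several places is not known.

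Txnrd3 was counted by the authors on a longer coding sequence than the annotated one. Its deposited values gave whole reads only with 111 more bases, or 37 codons, than the 615 annotated. Placed upstream of the annotated ATG, those codons open with CTG and hold 0 in-frame stop codons.

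Depth was 17763406 to 30296837 mapped reads in the footprint libraries and 10669213 to 16709701 in the mRNA libraries, recovered from the deposited values. Values are reads per kilobase, scaled to the mapped reads of the library, as RPKM for mRNA over the whole transcript and RPFKM for footprints over the coding sequence, per the file headers without its first 15 and last 3 codons. The window that gave whole reads was 57 bases, or 19 codons, shorter than the annotated coding sequence without its stop codon, where the headers' codons make 54 bases. The brackets below hold 95% intervals from the recovered reads, which cover counting error only and not the spread between mice. With 1 library a group there is no replicate check, and no p-value is given. The tables hold selenoprotein genes only, which limits the reading of liver identity. Sepp1, a selenium carrier secreted by liver, had mRNA at 1494 to 3045 RPKM in the 6 mRNA libraries. Dio1 and Gpx1 were listed with it as liver genes. In TrspA37G at 0 against 0.1 ppm selenium their mRNA was 4.68-fold (4.28 to 5.13) and 3.20-fold (3.10 to 3.31) lower. Sepp1 mRNA was 1.36-fold lower (1.34 to 1.37) there. In wild type at the same diets Dio1 mRNA was 1.01-fold higher (0.95 to 1.08). Gpx1 was 2.61-fold lower (2.56 to 2.66) and Sepp1 1.31-fold lower (1.30 to 1.33).

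Txnrd1 was the most abundant member in mRNA and in footprints in every library. In wild type its mRNA was at 29.1 RPKM (27.7 to 30.5) at 0 ppm, 37.5 RPKM (35.7 to 39.3) at 0.1 ppm and 37.4 RPKM (35.6 to 39.3) at 2.0 ppm selenium. In TrspA37G it was at 29.9 RPKM (28.2 to 31.6), 31.9 RPKM (30.0 to 33.8) and 29.0 RPKM (27.4 to 30.7) at the same diets. The libraries thus fell into a higher pair, wild type at 0.1 and 2.0 ppm, and 4 lower ones whose neighbouring values did not differ beyond counting error. The highest and lowest of these 4, TrspA37G at 0.1 and 2.0 ppm, did differ, at 1.10-fold (1.01 to 1.19). Txnrd1 footprints spread further. In wild type they were at 28.6 RPFKM (26.8 to 30.4), 61.3 RPFKM (59.0 to 63.7) and 64.2 RPFKM (61.1 to 67.3) at 0, 0.1 and 2.0 ppm. The TrspA37G values were 34.9 RPFKM (33.1 to 36.8), 45.1 RPFKM (43.1 to 47.1) and 36.7 RPFKM (34.6 to 38.9). The lowest library was wild type at 0 ppm, below TrspA37G on the same diet, and both selenium-fed wild-type libraries lay above all TrspA37G libraries.

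Txnrd2 differed from Txnrd1 in that footprints, but not mRNA, separated the genotypes. In wild type its mRNA was at 6.63 RPKM (5.77 to 7.59) at 0 ppm, 8.31 RPKM (7.26 to 9.46) at 0.1 ppm and 9.99 RPKM (8.76 to 11.3) at 2.0 ppm. In TrspA37G it was at 4.95 RPKM (4.10 to 5.93), 8.14 RPKM (6.96 to 9.48) and 4.89 RPKM (4.07 to 5.84). The TrspA37G library at 0.1 ppm stood among the wild-type ones in mRNA, apart from the other two of its genotype. Txnrd2 footprints in wild type were at 7.54 RPFKM (6.67 to 8.48), 13.8 RPFKM (12.7 to 14.9) and 16.3 RPFKM (14.8 to 17.9) at 0, 0.1 and 2.0 ppm. The TrspA37G libraries held 5.50 RPFKM (4.83 to 6.24), 4.60 RPFKM (4.0 to 5.27) and 3.97 RPFKM (3.33 to 4.70). Every TrspA37G footprint value lay below every wild-type one, as in 35% of the 20 compared genes. Within wild type each neighbouring pair of diets differed beyond counting error, and within TrspA37G no neighbouring pair did, but the value at 0 ppm was 1.39 times that at 2.0 ppm (1.12 to 1.72).

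Txnrd3 was the least abundant member, and its genotypes did not overlap in mRNA or in footprints, as in 15% of the compared genes for both readouts together. Its mRNA in wild type was at 2.57 RPKM (2.14 to 3.07), 4.02 RPKM (3.42 to 4.69) and 4.24 RPKM (3.58 to 4.97) at 0, 0.1 and 2.0 ppm. In TrspA37G it was at 1.02 RPKM (0.717 to 1.42), 1.98 RPKM (1.51 to 2.55) and 2.00 RPKM (1.57 to 2.51). The lowest value rested on 36 reads. Txnrd3 footprints in wild type were at 1.5 RPFKM (1.16 to 1.90), 3.77 RPFKM (3.29 to 4.31) and 3.38 RPFKM (2.79 to 4.06). In TrspA37G they were at 0.639 RPFKM (0.445 to 0.888), 1.38 RPFKM (1.09 to 1.72) and 1.07 RPFKM (0.781 to 1.43), from 35, 78 and 45 reads. In bulk liver a lower level in the same cells and fewer cells of a type that express the gene cannot be told apart. The lowest wild-type and the highest TrspA37G libraries were neighbours in the order of Txnrd3 and did not differ beyond counting error, at a ratio of 1.29 (0.959 to 1.75) in mRNA and 1.09 (0.772 to 1.52) in footprints.

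**Figure D1:**
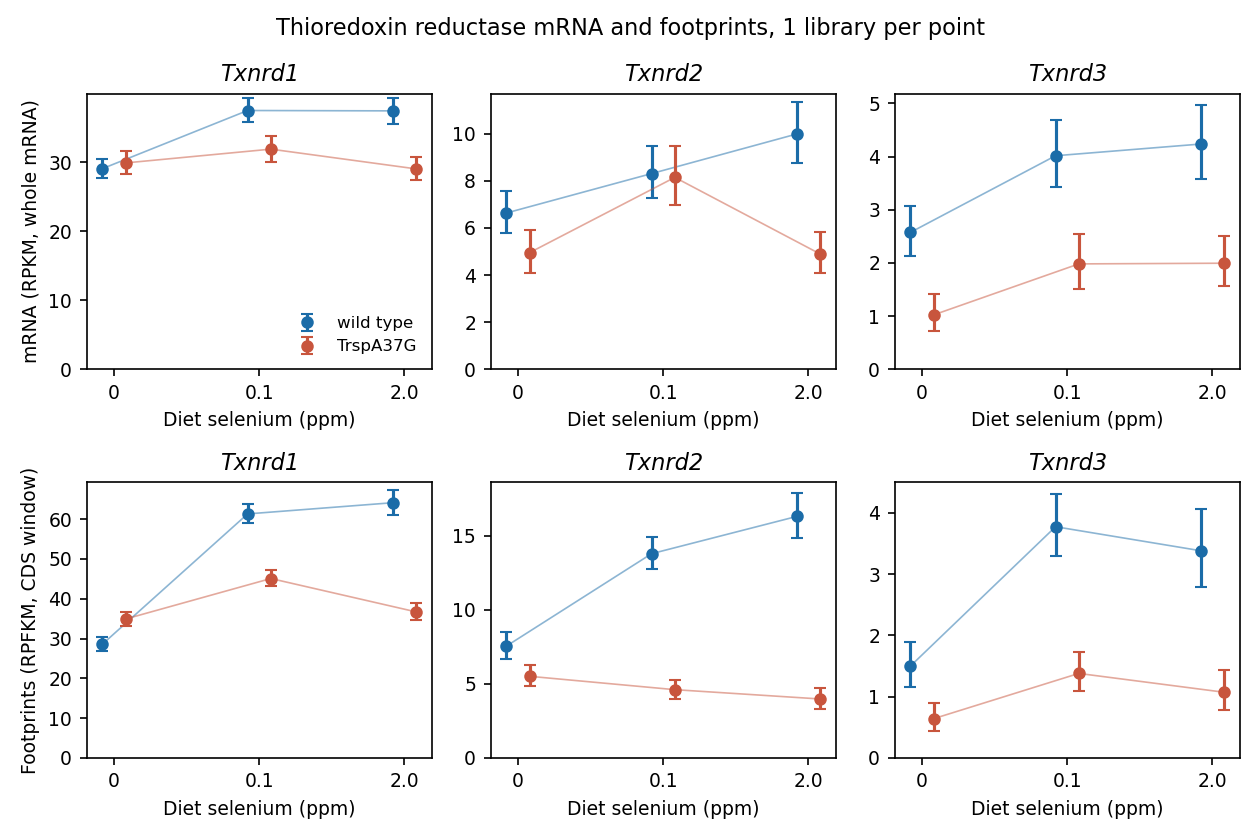
mRNA in RPKM (top) and footprints in RPFKM (bottom) of Txnrd1, Txnrd2 and Txnrd3 by diet selenium in ppm, with 1 library per point, wild type in blue and TrspA37G in red. Bars are 95% intervals of counting error, and the thin lines join libraries of 1 genotype. Txnrd2 footprints in TrspA37G stay between 3.97 and 5.50 RPFKM where those of wild type reach 16.3.

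The balance of the members within a library does not depend on the depth or the scaling of that library. In wild type Txnrd1 took 76%, 77.8% and 76.5% of the summed footprint density of the 3 genes at 0, 0.1 and 2.0 ppm, and in TrspA37G 85.0%, 88.3% and 87.9%. The Txnrd2 share in wild type was 20.0%, 17.5% and 19.4%, and in TrspA37G it was lower at each diet, with 13.4%, 9.01% and 9.51%. The ratio of Txnrd1 to Txnrd2 footprints was thus 3.79 to 4.45 across the wild-type diets and 6.35 to 9.80 across the TrspA37G diets, with no overlap. The footprint ratio of Txnrd1 to a gene was higher in every TrspA37G library for 4 of the other 19 genes, or 21.1%. Txnrd2 and Txnrd3 are among these 4. The ratio of Txnrd1 to Txnrd2 in mRNA was 3.75 to 4.51 in wild type and 3.92 to 6.04 in TrspA37G, and there the genotypes overlapped. The ratio of Txnrd1 to Txnrd3 was 16.3 to 19.1 in footprints of wild type and 32.7 to 54.7 in those of TrspA37G. In mRNA it was 8.83 to 11.3 in wild type and 14.5 to 29.2 in TrspA37G, so for Txnrd3 the genotypes were apart in both readouts. In mRNA that held for the ratio of Txnrd1 to 10.5% of the other genes, Txnrd3 included.

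**Figure D2:**
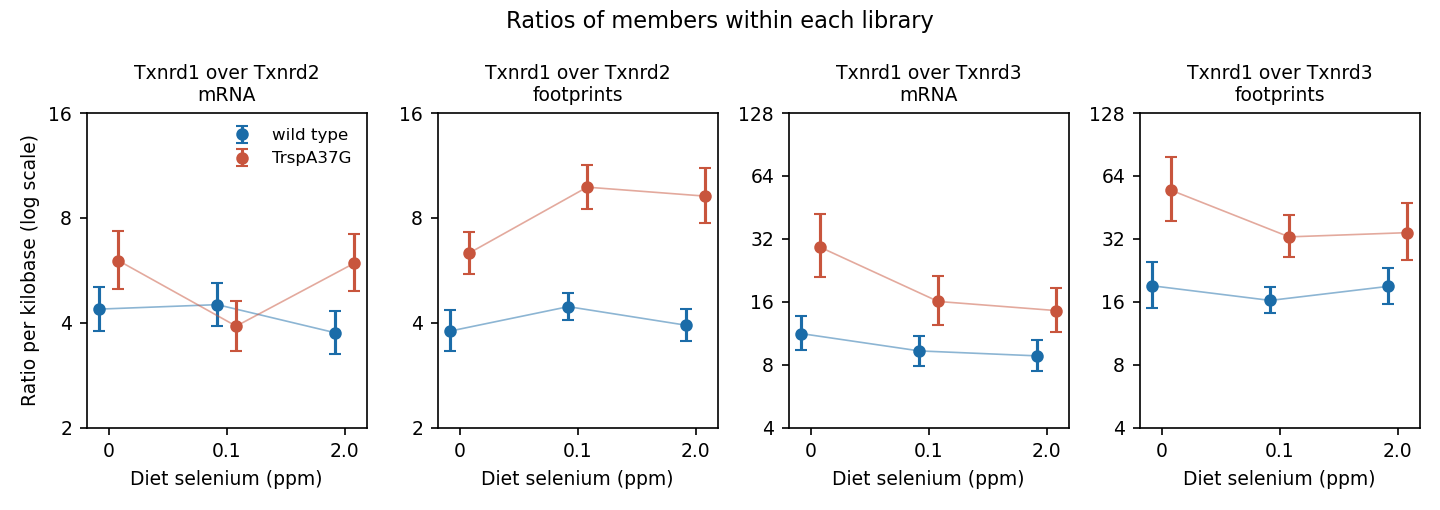
Ratio of Txnrd1 to Txnrd2 and of Txnrd1 to Txnrd3 within each library, per kilobase and on a log axis, by diet selenium in ppm, with wild type in blue and TrspA37G in red. Bars are 95% intervals of counting error. The footprint ratio of Txnrd1 to Txnrd2 is at 3.79 to 4.45 in wild type and 6.35 to 9.80 in TrspA37G, while the mRNA ratios of the genotypes overlap.

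For each readout 7 comparisons were made, 4 between diets and 3 between genotypes. A value was called when the libraries differed at least 1.5-fold and the interval of the ratio excluded 1, and 20 genes could be compared each time. The first set the diet without selenium against 0.1 ppm. In wild type the mRNA of 1 member, Txnrd3, was called lower, where 20% of all compared genes were. In TrspA37G Txnrd2 and Txnrd3 mRNA were called lower, where 30% of genes were, and Txnrd1 was at a log2 ratio of -0.09 that turned to 0.35 under median scaling of the libraries. Neither these nor the wild-type mRNA call held under that scaling. Footprints of all 3 members were called lower in wild type, with a median log2 ratio of -1.10 against -0.73 over all genes, of which 55% were called lower. Under median scaling Txnrd3 (-0.60) was still called there, and Txnrd1 (-0.37) and Txnrd2 (-0.14) were not. In TrspA37G the footprints of 1 member, Txnrd3, were called lower, where 70% of genes were, a call that median scaling ended (-0.03). There Txnrd1 was at log2 -0.37 (-0.47 to -0.27), or 0.71 under median scaling, and Txnrd2 at 0.26 (-0.01 to 0.53), which ranked 19 of 20 from the lowest.

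The members differed from each other in that comparison within TrspA37G. The log2 ratio of Txnrd3 footprints was 1.37 below that of Txnrd2 (difference -1.37, -2.05 to -0.71) and 0.74 below that of Txnrd1 (difference -0.74, -1.32 to -0.16). Txnrd2 was above Txnrd1 by 0.63 (0.34 to 0.91). In mRNA the order was another: Txnrd2 was below Txnrd1, with a difference of -0.62 (-0.98 to -0.27), and Txnrd3 was below Txnrd1, with -0.86 (-1.47 to -0.25). In wild type none of the differences between members reached 1.5-fold. In footprints the interval still excluded 0 for Txnrd2 minus Txnrd1, at 0.23 (0.003 to 0.46), and for Txnrd3 minus Txnrd2, at -0.46 (-0.93 to -0.01). Such differences between members do not move with the scaling of a library.

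Between 2.0 and 0.1 ppm, 1 value was called over the members, Txnrd2 mRNA in TrspA37G. It was 1.66-fold lower (1.31 to 2.12), and was the only mRNA called lower in that comparison, at 5% of the compared genes. Its footprints in the same comparison were at a log2 ratio of -0.21 (-0.54 to 0.11). For footprints no member was called in either genotype, where in wild type 15% of genes were called higher and in TrspA37G 0 of 20 were called. In TrspA37G the footprint log2 ratios of the members were among the 4 lowest of 20, with Txnrd1 at -0.30 (-0.40 to -0.19), Txnrd3 at -0.36 (-0.93 to 0.18) and Txnrd2 at -0.21. Their median was -0.30, against 0.14 over all genes. In wild type the median of the members was 0.06 and that of all genes 0.21.

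In the comparison of TrspA37G with wild type, the members took different places among the compared genes at 0 ppm, from rank 7 to rank 20 from the lowest in footprints. Txnrd1 footprints were 1.22-fold higher (1.13 to 1.33) in TrspA37G, the highest ratio of the 20 genes, and at log2 1.3 under median scaling. Txnrd2 footprints were at log2 -0.45 (-0.71 to -0.20), which turned to 0.51 under median scaling. Txnrd3 was called lower in footprints, as were 60% of genes, and in mRNA, as were 45%, and under median scaling the mRNA call held (-0.78) and the footprint call did not (-0.26). At 0.1 ppm footprints of Txnrd2 (2.99-fold, 2.56 to 3.52) and Txnrd3 (2.74-fold, 2.1 to 3.59) were called lower, where 40% of genes were. The Txnrd2 mRNA values at that diet did not differ beyond counting error, at a log2 ratio of -0.03 (-0.33 to 0.27), and 1 member, Txnrd3, was called lower in mRNA, where 20% of genes were. At 2.0 ppm footprints of all 3 were called lower, with a median log2 ratio of -1.66 against -0.67 over all genes, 50% of which were called. Under median scaling Txnrd2 (-1.37) and Txnrd3 (-0.99) were still called and Txnrd1 (-0.14) was not. In mRNA Txnrd2 and Txnrd3 were called lower at 2.0 ppm, where 30% of genes were, and Txnrd3 was the lowest of the 20. The Txnrd3 log2 ratio was -1.09 (-1.51 to -0.67), and Gpx1 (-1.04), Txnrd2 (-1.03) and Gpx3 (-0.99) lay inside that interval. Exchanging the genotype within 3 diets could give a two-sided exact p of 0.25 at best, so that test was not made.

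Txnrd1 stood apart from the other members in the comparison of the genotypes at each diet. The footprint log2 ratio of Txnrd2 was lower than that of Txnrd1 by differences of -0.74 (-1.02 to -0.47) at 0 ppm, -1.14 (-1.38 to -0.90) at 0.1 ppm and -1.23 (-1.53 to -0.93) at 2.0 ppm. For Txnrd3 against Txnrd1 the differences were -1.52 (-2.12 to -0.92), -1.01 (-1.39 to -0.63) and -0.85 (-1.36 to -0.34). In mRNA Txnrd3 was below Txnrd1 at each diet, with differences of -1.37 (-1.92 to -0.82), -0.79 (-1.23 to -0.34) and -0.72 (-1.14 to -0.30). Txnrd2 mRNA was below Txnrd1 at 0 ppm and 2.0 ppm, with -0.46 (-0.80 to -0.12) and -0.66 (-0.99 to -0.33), but at 0.1 ppm the difference was 0.20 (-0.10 to 0.51). Of the 63 differences between members over all readouts and comparisons, 31 had an interval that excluded 0 and 26 of these were also past 1.5-fold. They are not separate results, as the pairs share genes, the readouts share reads and the comparisons share libraries. Pairs of the other genes were not counted, so these counts cannot be called high or low for selenoprotein genes.

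**Figure D3:**
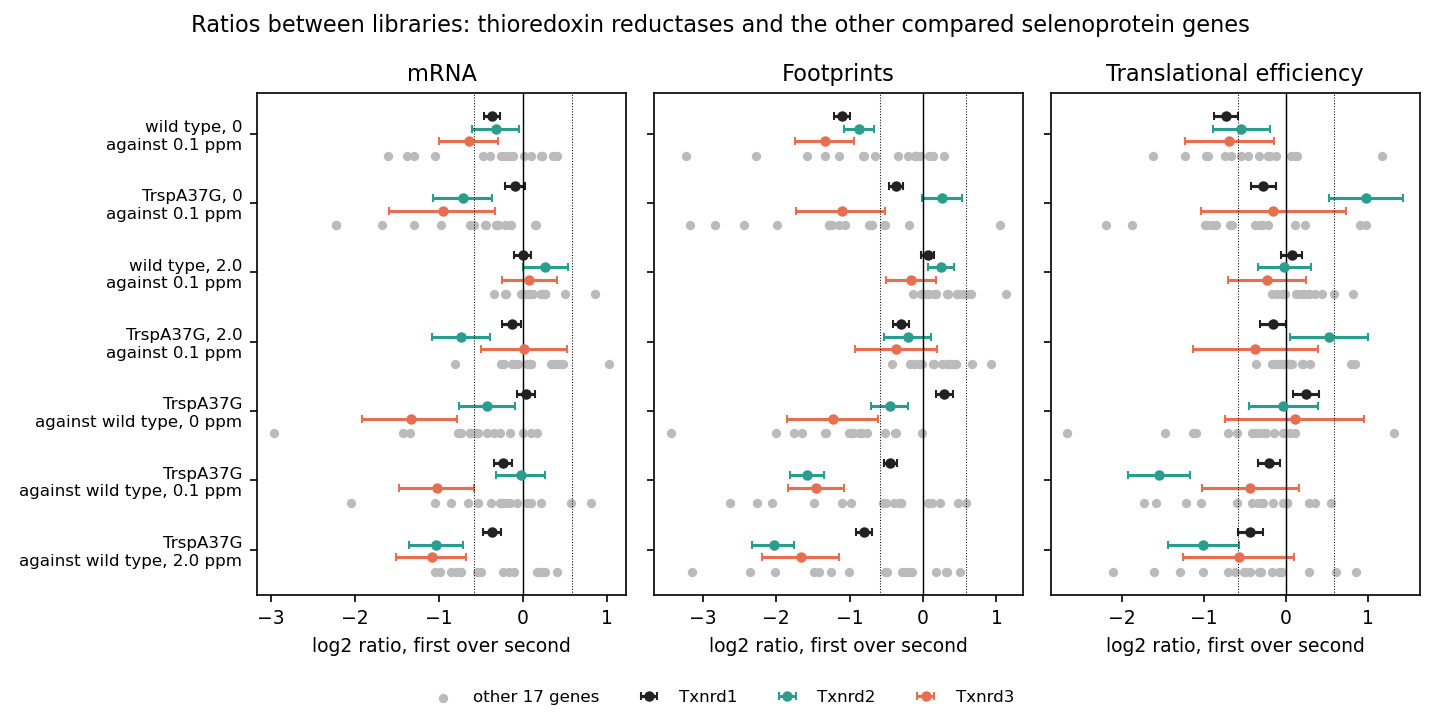
Log2 ratio of the first over the second library named at the left, for mRNA, footprints and translational efficiency. Coloured points are the members with their 95% intervals of counting error, grey points are the other compared selenoprotein genes, and dotted lines mark 1.5-fold. Txnrd1 footprints lie furthest right of all genes in the genotype comparison at 0 ppm, and Txnrd2 and Txnrd3 footprints lie left of the 1.5-fold line in those at 0.1 and 2.0 ppm.

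Translational efficiency was taken as footprint RPFKM over mRNA RPKM in the libraries of the same diet and genotype. For Txnrd1 it was 0.983 (0.907 to 1.07) in wild type at 0 ppm, 1.64 (1.54 to 1.74) at 0.1 ppm and 1.71 (1.60 to 1.84) at 2.0 ppm. In TrspA37G it was 1.17 (1.08 to 1.26), 1.41 (1.31 to 1.52) and 1.26 (1.17 to 1.37), a narrower range that lay inside that of wild type. For Txnrd2 it was 1.14 (0.947 to 1.37), 1.66 (1.42 to 1.94) and 1.63 (1.39 to 1.92) in wild type. In TrspA37G Txnrd2 was at 1.11 (0.888 to 1.40), 0.565 (0.459 to 0.696) and 0.811 (0.630 to 1.04), so its order over the diets was another: the library without selenium was the highest. For Txnrd3 it was 0.581 (0.425 to 0.788), 0.939 (0.763 to 1.16) and 0.798 (0.619 to 1.02) in wild type, and 0.624 (0.380 to 1.02), 0.695 (0.490 to 0.990) and 0.536 (0.362 to 0.787) in TrspA37G. Txnrd3 was below Txnrd1 in all 6 pairs of libraries.

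Called differences in efficiency were fewer than in footprints. At 0 against 0.1 ppm in wild type, Txnrd1 and Txnrd3 were called lower, where 30% of genes were, and their log2 ratios and that of Txnrd2 lay between -0.55 and -0.74. Median scaling ended both calls, with Txnrd1 at -0.23 and Txnrd3 at -0.18. In TrspA37G 1 member, Txnrd2, was called higher at 0 ppm (1.97-fold, 1.44 to 2.69), where 15% of genes were. Between 2.0 and 0.1 ppm no member was called in either genotype, and 5% of genes were called higher in wild type and 0 in TrspA37G. In the genotype comparison at 0 ppm no member was called, where 15% of genes were called lower. Txnrd2 was called lower in TrspA37G at 0.1 ppm (2.94-fold, 2.26 to 3.81) and at 2.0 ppm (2.01-fold, 1.49 to 2.72), where 30% of genes were in each. Median scaling kept the call at 0.1 ppm (-1.26) and ended that at 2.0 ppm (-0.54). Txnrd1 was at log2 -0.21 and -0.44 in these comparisons, and at 0.09 and 0.03 under median scaling. The difference between Txnrd2 and Txnrd1 at 0.1 ppm was -1.34 (-1.73 to -0.95). Between Txnrd3 and Txnrd1, 0 of 7 differences in efficiency had an interval that excluded 0, and the widest of these intervals ran from -0.72 to 0.96.

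**Figure D4:**
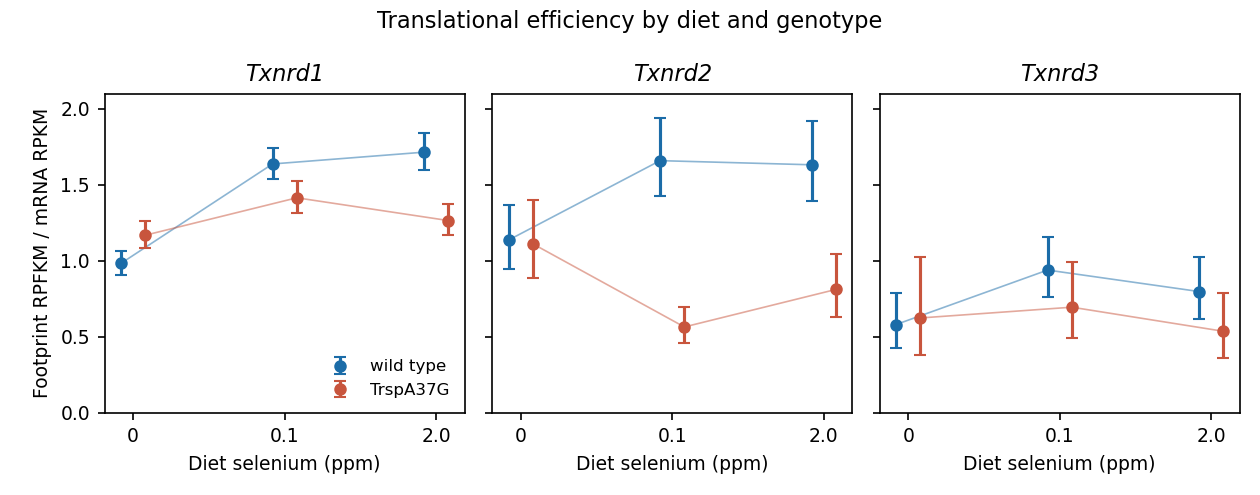
Translational efficiency, footprint RPFKM over mRNA RPKM, of each member by diet selenium in ppm, with wild type in blue and TrspA37G in red. Bars are 95% intervals of counting error. Txnrd2 in TrspA37G is at 1.11 without selenium and 0.565 at 0.1 ppm, where wild type goes from 1.14 to 1.66.

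The response to the diet itself was then compared between the genotypes, as the log2 ratio in TrspA37G minus that in wild type. For Txnrd2 footprints at 0 against 0.1 ppm the difference was 1.13 (0.79 to 1.46), from 0.26 in TrspA37G and -0.87 in wild type. It ranked 2 of 20 genes from the highest, and the median over all genes was -0.20. For Txnrd1 footprints the difference was 0.73 (0.59 to 0.88), which ranked 4 of 20, and for Txnrd3 0.23 (-0.47 to 0.92). For Txnrd2 efficiency the difference was 1.52 (0.97 to 2.07), the highest of the 20 genes, whose median was 0.03. Gpx1 at 1.18 (1.09 to 1.26) and Sepx1 at 1.12 (0.99 to 1.26) came next and lay inside the Txnrd2 interval. At 2.0 against 0.1 ppm Txnrd2 mRNA differed by -1.0 (-1.43 to -0.57), from -0.73 in TrspA37G and 0.27 in wild type. Over both diets and the 3 readouts, 6 of 18 member values had responses of opposite sign with an interval of the difference that excluded 0, where 25% of the values of all genes did. Among these 6, only for Txnrd2 efficiency at 0 against 0.1 ppm did the responses of both genotypes have intervals that excluded 0. That held as deposited, but under median scaling the interval of the wild-type response included 0. Both the Txnrd2 efficiency result and the Txnrd2 mRNA result use the TrspA37G mRNA library at 0.1 ppm, in which Txnrd2 was counted from 167 reads. Its part in them was not tested.

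The other selenoproteins with Sec close to the end of the protein were Selk, Sels, Selo and Seli. In the genotype comparison 0 of these 4 were called lower in footprints at 0.1 ppm and at 2.0 ppm. Of the 3 thioredoxin reductases 2 and 3 were, and of all compared genes 40% and 50%. Selo at 0.1 ppm (1.46-fold lower, 1.36 to 1.55) and Sels at 2.0 ppm (1.41-fold lower, 1.28 to 1.55) fell short of the 1.5-fold rule. So did Seli at 0.1 ppm, at 1.497-fold higher (1.40 to 1.60). The median log2 footprint ratios of these 4 genes were -0.09 and -0.05. Those of the thioredoxin reductases were -1.45 and -1.66, and those over all genes -0.48 and -0.67. At 0 ppm Selo was called lower in mRNA (1.55-fold, 1.43 to 1.68) and in footprints (1.94-fold, 1.8 to 2.1), and so was Seli, at 1.53-fold (1.42 to 1.65) and 1.70-fold (1.56 to 1.86). Of all compared genes 45% were called lower there in mRNA and 60% in footprints. At 0 against 0.1 ppm Selk footprints were called lower in wild type (2.22-fold, 1.4 to 3.62) and in TrspA37G (2.44-fold, 1.59 to 3.82), as were 55% and 70% of genes. Seli was called lower in TrspA37G in that comparison, 1.96-fold (1.82 to 2.12) in mRNA and 2.4-fold (2.21 to 2.6) in footprints, where 30% and 70% of genes were. In efficiency, 1 call was made on these 4 genes over the 7 comparisons, Selk lower at 0 against 0.1 ppm in TrspA37G (1.95-fold, 1.22 to 3.15), where 35% of genes were.

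Patterns most like those of the members were ranked by Pearson's correlation of log2 values over the 6 libraries of a readout, as a description of 19 other genes each. The libraries share their diets and genotypes between genes, and 1 scale per library. Txnrd1 footprints were closest to Sepp1 (0.90) and to Sepw1 (0.82), a small redox protein with as few as 3 reads in a library. Txnrd2 footprints were closest to Gpx1, the cytosolic glutathione peroxidase (0.94), and to Sepx1, a methionine sulfoxide reductase (0.93). Sepx1 footprints in TrspA37G were at 320, 155 and 149 RPFKM at 0, 0.1 and 2.0 ppm, also highest without selenium. Txnrd3 footprints were closest to Gpx1 (0.96) and Sels, a protein of the endoplasmic reticulum membrane (0.94). In mRNA, Txnrd1 was closest to Selm (0.92), counted from as few as 10 reads, and to Txnrd2 (0.83). Txnrd2 mRNA was closest to Txnrd1 (0.83) and Sepn1 (0.81), and Txnrd3 mRNA to Sepp1 (0.95) and Gpx1 (0.95).

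Because Sec is the penultimate residue, the members give no ratio of footprints past the UGA to those before it. The values 3′ of the UGA were listed at 0 for all 3 genes in the footprint and mRNA columns of every library. The window 5′ of the UGA was 9 bases shorter than the coding window and held nearly the same reads. Per the headers the coding window leaves out the last 3 codons, and the windows were placed by length only. The 9 bases are thus not shown to hold the UGA. For Txnrd1, 6 of 9859 footprints over the 6 libraries lay in them, or 0.0609% of footprints in 0.625% of the length. Of its mRNA reads 17 of 5565 did, or 0.305%. For Txnrd2 it was 2 of 1937 footprints, or 0.103% in 0.591% of the length. For Txnrd3 it was 2 of 557, or 0.359% in 0.474%. The table does not give the positions of single reads, so pausing at the UGA was not measured.

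The reads of the mRNA libraries were not even along the transcripts. Txnrd1 had 2.18 to 2.93 times as many mRNA reads per kilobase inside the coding window as outside it, over the 6 libraries, and Txnrd3 1.97 to 3.95 times. For Txnrd2 the ratio was 0.810 to 1.80. The effect of that unevenness on levels between members was not tested. With mRNA over the coding window as denominator, Txnrd1 efficiency was 0.678 to 1.13 across the libraries and Txnrd2 efficiency 0.523 to 1.59.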

How the data were processed

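Per the labels' protocols, frozen liver was homogenised with cycloheximide, footprints came from monosomes after RNase treatment, and libraries were made with a small RNA kit. Per the submitters' processing notes the authors mapped reads with Bowtie to mm9. The sources do not give its version, read filters, whether reads were counted by strand or how multiply mapping reads were treated. Overlaps of the members with neighbouring genes are not reported here. Per the file headers the deposited values are RPKM (RPFKM for footprints), for the whole mRNA, for the coding sequence, and for its parts on either side of the UGA. One footprint column, TrspA37G at 2.0 ppm, has mRNA as its assay heading but RPFKM as its unit, and was read as footprints.

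Whole reads were recovered by finding 1 number of mapped reads per library and a length for each gene and region. With these, 795 of 795 values above 0 came within 0.002 of a whole number. The search required this, so that count is not a separate check of it. The coding window was 57 bases shorter than the annotated coding sequence. The steps were tested on simulated data. A pair of libraries was compared for a gene with at least 10 reads over both and 1 in each. Intervals of mRNA and footprint ratios were exact binomial. Those of ratios of efficiencies, and of differences between members in mRNA or footprints, were exact up to 2000 reads and otherwise log-normal. Those of differences between members in efficiency, and of diet responses between genotypes, were log-normal. All are at 95%, with no adjustment for the number compared. A model of genotype blocked by diet could have been fitted and was not. Named other genes are, for each member and readout, those with the highest correlation. The members, lists and rules were chosen with earlier results of these data known. Python 3.11.15, scipy 1.17.1, numpy 2.4.6 and GENCODE M21 were used.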

Additional observations from a re-analysis of the deposited data

Results flagged for a closer look

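For 6 values the diet response had opposite signs in wild type and TrspA37G and the interval of the difference, TrspA37G minus wild type on the log2 scale, excluded 0. They are 6 of 18 values of the members, where 30 of 120 values of all compared genes, or 25%, met the same conditions. Each rests on 4 libraries, or 8 for efficiency, and the difference was not tested across animals. The signs are those of the ratios, whatever their own intervals. For Txnrd2 efficiency at 0 against 0.1 ppm both responses were beyond counting error as deposited. They were 0.98 (0.53 to 1.43) in TrspA37G and -0.55 (-0.89 to -0.20) in wild type. Median scaling removed a log2 shift of -0.51 from the wild-type ratio, which lies inside its interval. The wild-type response was thus not beyond counting error under that scaling. In the other flagged values the interval of the response in wild type or in TrspA37G included 0.

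At 0 against 0.1 ppm, Txnrd2 differed by 1.13 in footprints and by 1.52 in efficiency. Under median scaling of the libraries the footprint response was at -0.14 in wild type and 1.34 in TrspA37G, still on either side of 0. At 2.0 against 0.1 ppm, Txnrd2 differed by -1.0 in mRNA and by -0.45 in footprints.

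Txnrd1 at 2.0 against 0.1 ppm differed by -0.36 in footprints and by -0.23 in efficiency. Both responses are small: the footprint ones were 0.06 in wild type and -0.30 in TrspA37G. Under median scaling they were at -0.14 and -0.44, both below 0.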

How the results depend on the processing

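No direction of a called value reversed under any alternative, but some values short of the 1.5-fold rule changed sign under median scaling. Among them were Txnrd1 footprints at 0 against 0.1 ppm in TrspA37G, from log2 -0.37 (-0.47 to -0.27) to 0.71. Txnrd2 footprints in the genotype comparison at 0 ppm, at -0.45 (-0.71 to -0.20) as deposited, also went above 0. Median scaling sets the median of all compared genes to no change, and these are selenoproteins that themselves differ between the groups. It removed log2 shifts of -0.24, -0.44, 0.08, 0.06, -0.55, -0.23 and -0.43 in mRNA, and of -0.73, -1.08, 0.21, 0.14, -0.96, -0.48 and -0.67 in footprints, in the order wild type and TrspA37G at 0 ppm, the same at 2.0 ppm, and the genotypes at 0, 0.1 and 2.0 ppm. It moved 35 of 63 member values. Calls of lower values without selenium went from 3 of 6 to 0 in mRNA, from 4 of 6 to 1 in footprints and from 2 of 6 to 0 in efficiency. Higher footprint calls there went from 0 to 2, Txnrd1 at log2 0.71 and Txnrd2 at 1.34, both in TrspA37G. In the genotype comparison, higher calls went from 0 to 1 in mRNA (Txnrd1 at 0 ppm, 0.59) and from 0 to 1 in footprints (Txnrd1 at 0 ppm, 1.3), lower footprint calls from 6 of 9 to 4 (Txnrd3 at 0 ppm, -0.26, and Txnrd1 at 2.0 ppm, -0.14, were lost), and lower efficiency calls from 2 of 9 to 1 (Txnrd2 at 2.0 ppm, -0.54, was lost).

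A pseudocount of 1 RPKM left 1 lower call without selenium in mRNA and 1 in efficiency. A fold rule of 2 left 0 lower calls without selenium in mRNA and in efficiency, 0 of 1 higher in efficiency, and 0 of 1 lower at 2.0 ppm in mRNA. A looser fold rule gave 5 lower mRNA calls without selenium and 1 higher efficiency call at 2.0 ppm, Txnrd2 in TrspA37G, which mRNA over the coding window as denominator also gave (1). No filter on low counts, at least 50 reads, and footprints 5′ of the UGA moved 0 member values.

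Pairing by replicate was not possible because each group had 1 library. A model with diet as the block would be another analysis, and it was left out. Depth limits Txnrd3 most, whose TrspA37G values rest on 35 to 78 reads.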
